A study of Mus musculus with 4 samples.

Results

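The mouse genome names a series of zinc finger genes Zfp900 to Zfp999, and the 61 genes of this symbol range among the 20171 genes measured were described here, chosen by symbol alone. The study read full-length cDNA from single mouse oocytes and the cells of preimplantation embryos, to follow genes and their isoforms from before fertilization to the blastocyst. Cells were isolated one by one, each cDNA carried a cell barcode and a unique molecular identifier (UMI, a tag that marks 1 original molecule), and molecules were read whole on PacBio long-read chips. Embryos came from 6 to 8 week old C57BL/6J females mated with DBA/2NCrl males, and mouse embryonic stem cells (mESC) were taken along. Groups are stages: non-mated oocytes taken 20 hours after the hormone hCG, zygotes at 22 to 24 hours, early 2-cell embryos at 30 to 32 hours, late 2-cell embryos at 46 to 48 hours, 4-cell embryos at 54 to 56 hours, 8-cell embryos at 68 to 70 hours, 16-cell and 32-cell embryos at 78 to 80 hours, and early blastocysts at 88 to 90 hours. Neither oocytes, from unmated C57BL/6J females, nor mESC, a cultured male line (E14 Tg2A), are of the cross, and the females had received hormones (PMSG and hCG) before collection.

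Most genes of this range encode Cys2His2 zinc finger proteins with a KRAB domain at the start of the protein. The fingers bind DNA, and the KRAB domain binds TRIM28, which brings the histone methyltransferase SETDB1 and HP1 proteins and silences the bound site. These genes lie in clusters that grew by duplication in the mouse lineage, many of the proteins bind endogenous retroviruses, and the best known member here is Zfp932, whose protein, like that of its relative Gm15446, represses retroviral elements in mESC.

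The data held 161 cells: 10 oocytes, 9 zygotes, 10 cells of 5 early 2-cell embryos, 11 cells of 6 late 2-cell embryos, 17 cells of 5 4-cell embryos, 26 cells of 4 8-cell embryos and 38 cells of 4 16-cell embryos, besides 22 cells of the 32-cell stage, 13 of the blastocyst and 5 mESC. For 121 cells the name gives the oocyte, zygote or embryo, and each of these 43 counts as 1 replicate, with the mean of its cells as its value. An embryo number used again in another run would mix embryos, but no number held more cells than its stage allows, and in each of the 7 stages the cell counts of the 3 runs were matched by whole embryos taken in number order. Late 2-cell embryo 1 is a single cell of 17971 UMIs, in which 1 UMI is worth 5.56 copies. For the other 40 cells the embryo is unknown, and medians and ranges over cells are given in place of a test. The median depth was 195670 UMIs per cell in oocytes (166731 to 255836) and 246466 in zygotes (194072 to 389775), and it was lower in every later stage: 91608.5 in early 2-cell (31037 to 105534), 58097 in late 2-cell (17971 to 67963), 32466 in 4-cell (4985 to 43842), 33030 in 8-cell (11012 to 42673) and 32481 in 16-cell embryos (6934 to 60831). It was 34772.5 in 32-cell cells (13238 to 60779), 47437 in blastocyst cells (18215 to 56493) and 22726 in mESC (14267 to 25042). Values are copies per 100000 UMIs of a cell, which count molecules and were not divided by gene length, so that levels of different genes can be set side by side. A single UMI is worth 0.511 copies in the median oocyte, 3.08 in the median 4-cell stage cell and 4.40 in the median mESC. A gene without a UMI in all cells of a stage could be present at up to 0.148 copies in oocytes, 0.123 in zygotes, 0.354 in early 2-cell and 0.50 in late 2-cell embryos, 0.572 at the 4-cell stage, 0.382 at the 8-cell, 0.253 at the 16-cell and 0.393 at the 32-cell stage, 0.495 in blastocyst cells and 2.90 in mESC (3 UMIs of the total, for counting error alone).

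Marker genes set oocytes, zygotes and early 2-cell embryos apart from later stages, and separated the later stages less well. The sum of 8 oocyte genes (Zp3, Zp2, Gdf9, Bmp15, Oosp1, H1foo, Mos and Btg4) was 4380 copies in the median oocyte (3916 to 5130), with H1foo highest at a mean of 1593. Its median was 143 in late 2-cell (70.3 to 290), 268 in 4-cell, 169.9 in 8-cell and 356 in 16-cell embryos, 26.1 in 32-cell cells, 365 in blastocyst cells and 189 in mESC, so it did not fall steadily. It was 30.5 in 8-cell embryo 2 and 25.5 in 16-cell embryo 2, against 159.8 to 272 and 323 to 477 in the others of these stages, and other embryos placed in run 2 by number order were low as well: 52.1 in 4-cell embryo 2 (216 to 476 in the others), 70.3 and 122.9 in late 2-cell embryos 2 and 3 (135 to 290), 1066 and 1141 in early 2-cell embryos 2 and 3 (1313 to 1561), and 2590 and 2674 in zygotes 5 and 6 (2985 to 4579). Genes of the inner cell mass and mESC (Nanog, Sox2, Pou5f1, Esrrb, Dppa5a and Tdh) summed to 15.3 copies in the median oocyte, 208 in the late 2-cell, 609 in the blastocyst and 1162 in mESC. The 6 late 2-cell genes (Zscan4c, Zscan4d, Zfp352, Tdpoz4, Tdpoz3 and Usp17lc) had medians of 12.5 copies in early 2-cell, 6.10 in late 2-cell and 13.3 in 4-cell embryos, so late 2-cell embryos were not the highest. Trophectoderm genes (Cdx2, Krt8, Krt18, Gata3 and Eomes) ranged from 4.22 to 412 copies among blastocyst cells. Cumulus and granulosa genes, 7 of 10 of which were measured, summed to 8.31 copies in the median oocyte, with Cyp19a1 highest at a mean of 7.45. Free RNA of the oocyte type cannot be told apart from the cell's own at low levels: the 4 most abundant oocyte genes (H1foo, Oosp1, Btg4 and Gdf9) still stood at 5.81% of their oocyte mean in 4-cell embryos, 0.607% in 32-cell cells, 8.76% in blastocyst cells and 4.13% in mESC. For comparison, Zfp979 stood at 11.5%, 12.5%, 15% and 14.2% of its oocyte mean in these stages and Zfp961 at 23.9%, 26.6%, 38.2% and 37.7%. Sequencing runs were named for all oocytes (5, 1 and 4 in runs 1, 2 and 3) and zygotes (4, 2 and 3), and placing embryos by number order gave the named run in all 19 of them. For later embryos the run is this placement, not a name. All 32-cell cells were in run 2, all blastocyst cells in run 1 and all mESC in run 3, so these stages cannot be told apart from their runs.

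The 61 members lie on several chromosomes of mm10 (GRCm38), and 43 of them sit in 5 clusters of 3 or more. The largest, on chromosome 4 (145510759 to 147848366), holds 16 members, among them Zfp979 (ENSMUSG00000066000, 147611937 to 147642513, minus strand), Zfp978 (147361303 to 147391004, plus), Zfp982 (147492417 to 147513486, plus), Zfp985 (147553277 to 147585198, plus), Zfp980, Zfp981 and Zfp990. Chromosome 2 (175372436 to 178078476) and chromosome 17 (21567008 to 22867134) hold 10 each, the latter with Zfp942, Zfp943, Zfp944, Zfp946 and Zfp948, chromosome 7 (42579783 to 43192109) holds 4, with Zfp936, and chromosome 8 (69209038 to 69749970) holds 3. Outside clusters lie Zfp961 on chromosome 8 (71951038 to 71993792, plus), Zfp951 on chromosome 5 (104813169 to 104860070, minus), Zfp932 on chromosome 5 (109996521 to 110010411, plus) and Zfp957 on chromosome 14 (79212355 to 79247369, minus). The translated coding sequences of GENCODE vM21 held 0 to 21 Cys2His2 fingers by pattern (median 11) and encoded 139 to 794 amino acids (median 492). A KRAB pattern was found in 52 members, in each case in a short coding exon that the array of fingers does not share, and in the 59 members with fingers all fingers lay in 1 exon. Zfp957 and Zfp972 had no finger by this pattern. Many sequences are close to one another: for the members with a match, the nearest other coding sequence had a median of 91.7% identity (74.2 to 100, over 11.1 to 100% of their length), 4 (Zfp941, Zfp949, Zfp956 and Zfp961) had no match, and 22 members had a match of 95% or more, 20 of them over at least 90% of their length, so reads of such pairs may be split between them or given to the wrong copy. For Zfp932 the nearest was Gm15446 at 96.9%. Zfp935, Zfp939 and Zfp953 are annotated but were not analysed here.

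Promoters of 51 members were found in RefSeq (GRCm38.p6) as 58 windows of 300 bases around the annotated transcription start, and 2388 of 3296 isoform UMIs of these members (72.5%) started inside such a window. The motif CCAAT, on either strand, was in 45 windows (77.6%) against 37.4% of all 32851 mouse promoters. TATAAA was in 0 windows against 13.6%, GGGCGG in 19 (32.8%) against 35.7%, AGGTCA in 9 (15.5%) against 16.3% and GGATTA in 6 (10.3%) against 7.06%. Some members of the chromosome 4 cluster share promoter sequence: Zfp979 and Zfp980 matched in 89.8% of 305 aligned columns, Zfp979 and Zfp985 in 82.3% of 316. Zfp982 has 3 windows, of which the 1 that holds the first bases of 84 UMIs matched Zfp979 in 84.9% of 317 columns and the others, with no UMI, in 47.2% and 47.0%. The windows of Zfp993 and Zfp933, which hold no UMI, matched Zfp979 in 46.4% and 49.6%, near the 48.1% for Zfp932 on another chromosome. Those of Zfp987 and Zfp988, also without a UMI, matched Zfp979 in 82.8% and 74.6%. Zfp979, Zfp980 and Zfp985 carry CCAAT and GGGCGG on the same stretch, read on the strand shown as ATTGGGCGG. Of the 1195 isoform UMIs of Zfp979, 892 (74.6%) started within its window. Below, motif bases are in capitals, with each sequence read along the gene's strand. The Zfp979 window lies on chromosome 4 (147642459 to 147642758, minus strand).
Zfp979: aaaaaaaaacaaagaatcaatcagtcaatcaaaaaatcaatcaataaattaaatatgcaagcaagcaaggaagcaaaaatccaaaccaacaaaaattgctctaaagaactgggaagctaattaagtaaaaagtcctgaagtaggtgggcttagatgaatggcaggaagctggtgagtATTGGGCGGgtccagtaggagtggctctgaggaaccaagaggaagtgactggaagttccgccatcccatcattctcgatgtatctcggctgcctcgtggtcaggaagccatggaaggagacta
The Zfp980 window lies on chromosome 4 (145670447 to 145670746, plus strand) and holds the first base of 11 of 55 isoform UMIs (20%). These 11 belong to 1 isoform, PB.54772.139, which has no finger and no UMI from oocyte to 8-cell embryo. The Zfp980 isoforms with UMIs in oocytes start outside this window, at 145684772 to 145684821.
Zfp980: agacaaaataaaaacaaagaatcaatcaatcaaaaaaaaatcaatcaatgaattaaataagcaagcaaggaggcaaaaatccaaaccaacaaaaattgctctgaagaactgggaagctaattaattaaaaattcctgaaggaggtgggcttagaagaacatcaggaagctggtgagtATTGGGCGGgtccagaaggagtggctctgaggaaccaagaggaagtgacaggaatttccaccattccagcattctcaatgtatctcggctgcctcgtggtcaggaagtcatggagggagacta
The Zfp985 window lies on chromosome 4 (147553027 to 147553326, plus strand) and holds the first bases of all 16.
Zfp985: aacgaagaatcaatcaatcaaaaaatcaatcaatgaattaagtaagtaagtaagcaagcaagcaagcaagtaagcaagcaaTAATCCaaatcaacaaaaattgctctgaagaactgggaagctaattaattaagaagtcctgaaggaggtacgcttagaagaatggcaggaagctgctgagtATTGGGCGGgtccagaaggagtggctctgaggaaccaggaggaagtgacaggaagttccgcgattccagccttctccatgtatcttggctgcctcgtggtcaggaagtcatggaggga
The Zfp932 window lies on chromosome 5 (109996260 to 109996559, plus strand) and holds the first base of 75.4% of its isoform UMIs.
Zfp932: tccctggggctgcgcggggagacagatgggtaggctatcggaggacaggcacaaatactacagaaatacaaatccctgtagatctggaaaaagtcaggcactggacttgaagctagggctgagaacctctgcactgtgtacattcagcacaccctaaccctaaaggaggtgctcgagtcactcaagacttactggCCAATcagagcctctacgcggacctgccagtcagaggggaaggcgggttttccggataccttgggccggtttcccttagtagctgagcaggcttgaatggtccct
The Zfp951 window lies on chromosome 5 (104859978 to 104860277, minus strand) and holds all 40.
Zfp951: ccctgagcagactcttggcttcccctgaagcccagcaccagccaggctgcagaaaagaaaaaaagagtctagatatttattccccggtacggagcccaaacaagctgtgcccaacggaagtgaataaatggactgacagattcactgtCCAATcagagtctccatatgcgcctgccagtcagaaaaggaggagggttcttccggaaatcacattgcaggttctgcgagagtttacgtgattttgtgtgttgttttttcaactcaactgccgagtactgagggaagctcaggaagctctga

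All 61 members had at least 1 UMI in some cell, with 11491 UMIs over all cells, and 7 members had fewer than 10. A stage mean of at least 1 copy was reached by 41 members and of at least 5 copies by 20. For Zfp970 and Zfp986 that mean of at least 1 copy rests on 1 UMI in mESC. Counted per cell, members detected were 26 in the median oocyte (22 to 34), 31 in the median zygote (25 to 38), 24.5 in early 2-cell (21 to 32), 21.2 in late 2-cell (13 to 24.5), 14 in 4-cell (7 to 16.5), 8.5 in 8-cell (5 to 12.5) and 9 in 16-cell embryos (5 to 16). The count was 17 in 32-cell cells (6 to 29), 21 in blastocyst cells (8 to 28) and 10 in mESC (4 to 12). The cells of later stages were read less deeply. With each cell thinned to 5000 UMIs the medians were 4.6 in oocytes, 4.8 in zygotes, 5.4 in early 2-cell, 4.7 in late 2-cell and 3.5 in 4-cell embryos. Likewise thinned, 8-cell embryos gave 2.45, 16-cell embryos 2.9, 32-cell cells 4.6, blastocyst cells 4.2 and mESC 2.2. Early 2-cell embryos were then highest and mESC and 8-cell embryos lowest. At that depth 7.54% of members and 4.43% of 289 other Zfp genes were detected in the median 32-cell cell, 6.89% and 4.29% in the blastocyst, and 3.61% and 5.67% in mESC.

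Each member was placed in the stage with its highest mean. Blastocyst cells took 12 members, early and late 2-cell embryos 10 each, mESC 9, the 32-cell stage 6, the 4-cell stage 5, oocytes 4, zygotes 3, and the 8-cell and 16-cell stages 1 each. As shares, 19.7% of members and 3.46% of other Zfp genes were highest in the blastocyst, where 2 members had a clear peak and 2 were highest by the median over cells and embryos, and the other stages lay closer, such as 16.4% and 20.4% in early 2-cell and 14.8% and 18.0% in mESC. Highest in oocytes were Zfp961, Zfp980, Zfp931 and Zfp964, and in zygotes Zfp957, Zfp952 and Zfp937. Early 2-cell embryos had the highest mean of Zfp979, Zfp951, Zfp942, Zfp944, Zfp943, Zfp946, Zfp963, Zfp934, Zfp975 and Zfp994, and late 2-cell embryos that of Zfp936, Zfp948, Zfp930, Zfp949, Zfp956, Zfp950, Zfp938, Zfp940, Zfp941 and Zfp965. The 4-cell stage had Zfp958, Zfp977, Zfp974, Zfp972 and Zfp945, the 8-cell stage Zfp966 and the 16-cell stage Zfp960. The 32-cell stage had Zfp978, Zfp985, Zfp954, Zfp991, Zfp967 and Zfp968, and blastocyst cells had Zfp982, Zfp932, Zfp981, Zfp993, Zfp947, Zfp989, Zfp987, Zfp995, Zfp933, Zfp971, Zfp973 and Zfp969. In mESC, with 5 cells, Zfp990, Zfp984, Zfp988, Zfp992, Zfp976, Zfp970, Zfp986, Zfp959 and Zfp983 were highest. There Zfp970, Zfp986, Zfp959 and Zfp983 rest on 1 UMI each, Zfp992 on 2 and Zfp976 on 3. Zfp966, Zfp945, Zfp965 and Zfp969 were also placed in their stages by 1 UMI each. Many of these places rest on small differences: a mean at least 1.5 times the second and 10 UMIs in the stage were found for 14 members, which are Zfp952 in zygotes, Zfp951, Zfp944, Zfp943, Zfp946 and Zfp963 in early 2-cell, Zfp949 in late 2-cell, Zfp978, Zfp954, Zfp967 and Zfp968 in 32-cell, Zfp981 and Zfp993 in blastocyst cells and Zfp990 in mESC. The highest stage was the same for 50 members with UMIs pooled over the stage and for 28 with the median over embryos, where 13 members had a median of 0 in every stage.

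**Figure D1:**
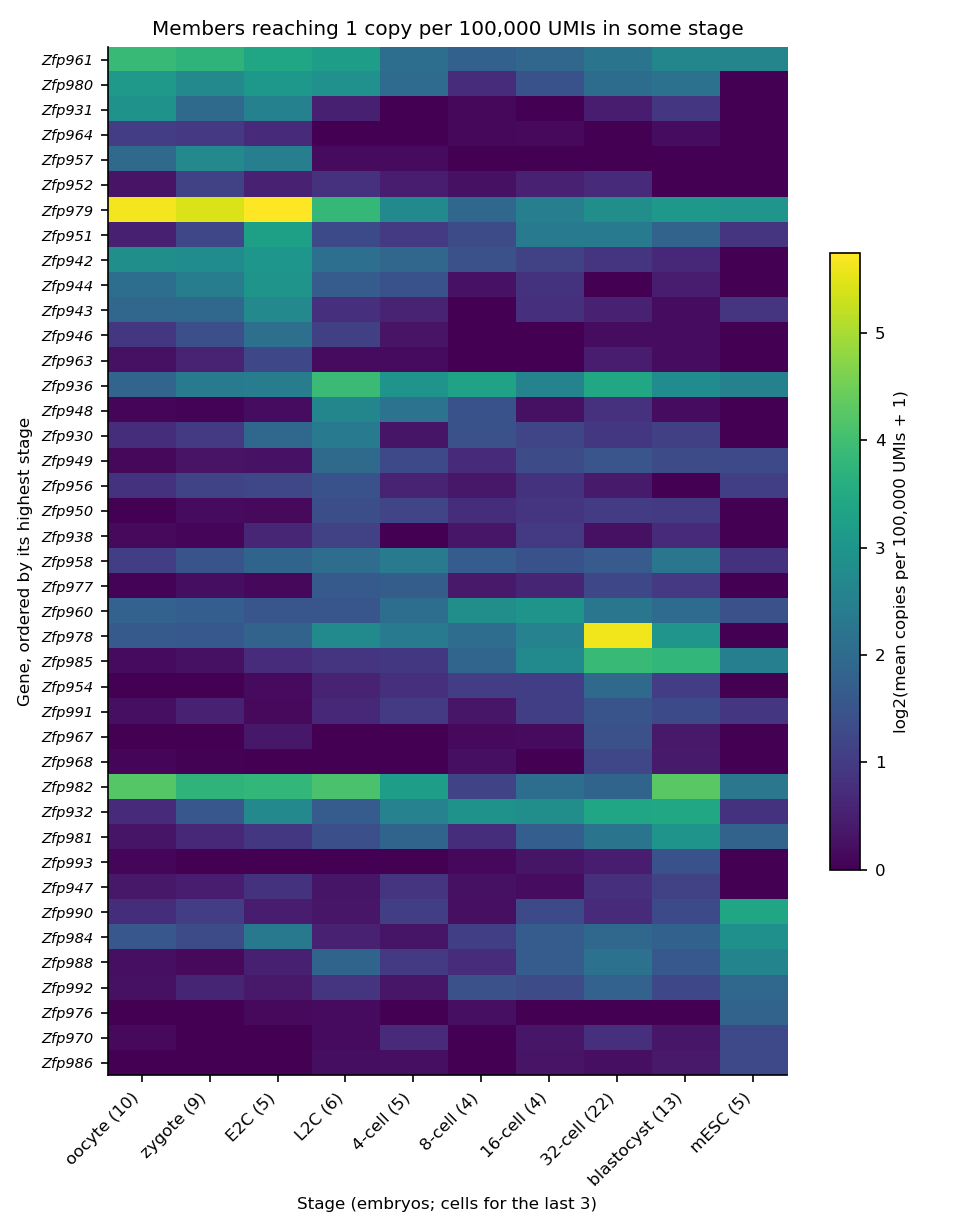
Colour gives log2 of the mean copies per 100000 UMIs plus 1 for the 41 members that reach a mean of 1 copy in some stage, by stage (columns, with the number of oocytes, zygotes, embryos or cells), ordered by the stage of the highest mean. Zfp979 stands out from oocyte to early 2-cell embryo and Zfp978 in 32-cell cells, at 48.2 copies.

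Summed over the members, copies were 129.8 ± 25.2 in oocytes (SD, n = 10, 69.7 to 164), 122 ± 27.1 in zygotes (n = 9), 162 ± 19.0 in early 2-cell (n = 5, 138 to 186), 113 ± 31.2 in late 2-cell (n = 6), 72.1 ± 20.6 in 4-cell (n = 5), 56.6 ± 13.7 in 8-cell (n = 4) and 71.6 ± 19.9 in 16-cell embryos (n = 4). Medians over cells were 152 in 32-cell (50.7 to 221), 115 in blastocyst (65.9 to 139.7) and 71.9 in mESC (32.8 to 98.1). Other Zfp genes summed to a mean of 562 in oocytes, 759 in early 2-cell, 441 and 413 at the 8-cell and 16-cell stages, and 384, 382 and 526 in 32-cell cells, blastocyst cells and mESC. The difference between members and other Zfp genes was not tested. Few members made up the sums: Zfp979 alone held 37.8% in oocytes, 34.1% in zygotes and 32.6% in early 2-cell embryos, and Zfp978 held 33.4% in 32-cell cells. The chromosome 4 cluster summed to 81.5 ± 21.2 copies in oocytes, 84.5 ± 10.5 in early 2-cell, 16.4 ± 4.89 in 8-cell embryos and a median of 88.6 in 32-cell cells (33.8 to 140.2). The chromosome 17 cluster was highest in early 2-cell embryos, at 25.5 ± 6.57 copies against 13.9 ± 4.48 in oocytes and 4.60 in 8-cell embryos.

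Zfp979 was the most abundant member, with values that overlapped between oocytes, zygotes and early 2-cell embryos. It had 20.7 to 62.4 copies in oocytes (median 49.7, mean 49.0 ± 12.6 SD), 20.9 to 66.4 in zygotes (median 43.2) and 50.1, 66.7, 51.1, 45.5 and 50.8 in the early 2-cell embryos. In late 2-cell embryos it had 39, 5.23, 10.1, 14.6, 4.93 and 5.29 copies, in 4-cell embryos 9.31, 4.9, 0, 2.4 and 11.5. Its later values were low, with medians of 4.75 in 32-cell cells (0 to 18.6), 7.08 in blastocyst cells (0 to 20.5) and 0 in mESC (0 to 17.6). Zfp961 was lower in later stages by smaller steps, with 10.2 to 18.8 copies in oocytes (median 12.3), 7.73 to 17.2 in zygotes (median 12.6), 10.9, 10.2, 7.67, 11.6 and 7.55 in early 2-cell embryos and 4.41 to 16.7 in late 2-cell embryos (median 6.78). It then had 0.77, 2.45, 5.14, 3.59 and 4.31 in 4-cell, 4.46, 4.13, 0 and 1.15 in 8-cell and 1.97, 5, 1.97 and 1.93 in 16-cell embryos, with a median of 3.94 in 32-cell (0 to 9.14), 4.65 in blastocyst (0 to 11.4) and 0 in mESC (0 to 17.6). No step between neighbouring stages was called for Zfp961, whose neighbouring stages overlapped throughout, except that without array weights the step from late 2-cell to 4-cell embryos passed the limits (-1.14, against -0.87 with them). Zfp980 was likewise called nowhere, with 3.33 to 11.6 copies in oocytes (median 7.55), 3.61 to 8.47 in zygotes (median 5.08), 1.57 to 11.1 in late 2-cell embryos (median 7.20), a median of 2.35 in 32-cell cells (0 to 11.3) and no UMI in mESC. Zfp957 had 0.974 to 6.69 copies in oocytes (median 2.21), 1.03 to 11.0 in zygotes (median 5.77) and 3.17 to 5.4 in early 2-cell embryos, and it had no UMI from the 8-cell stage on.

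**Figure D2:**
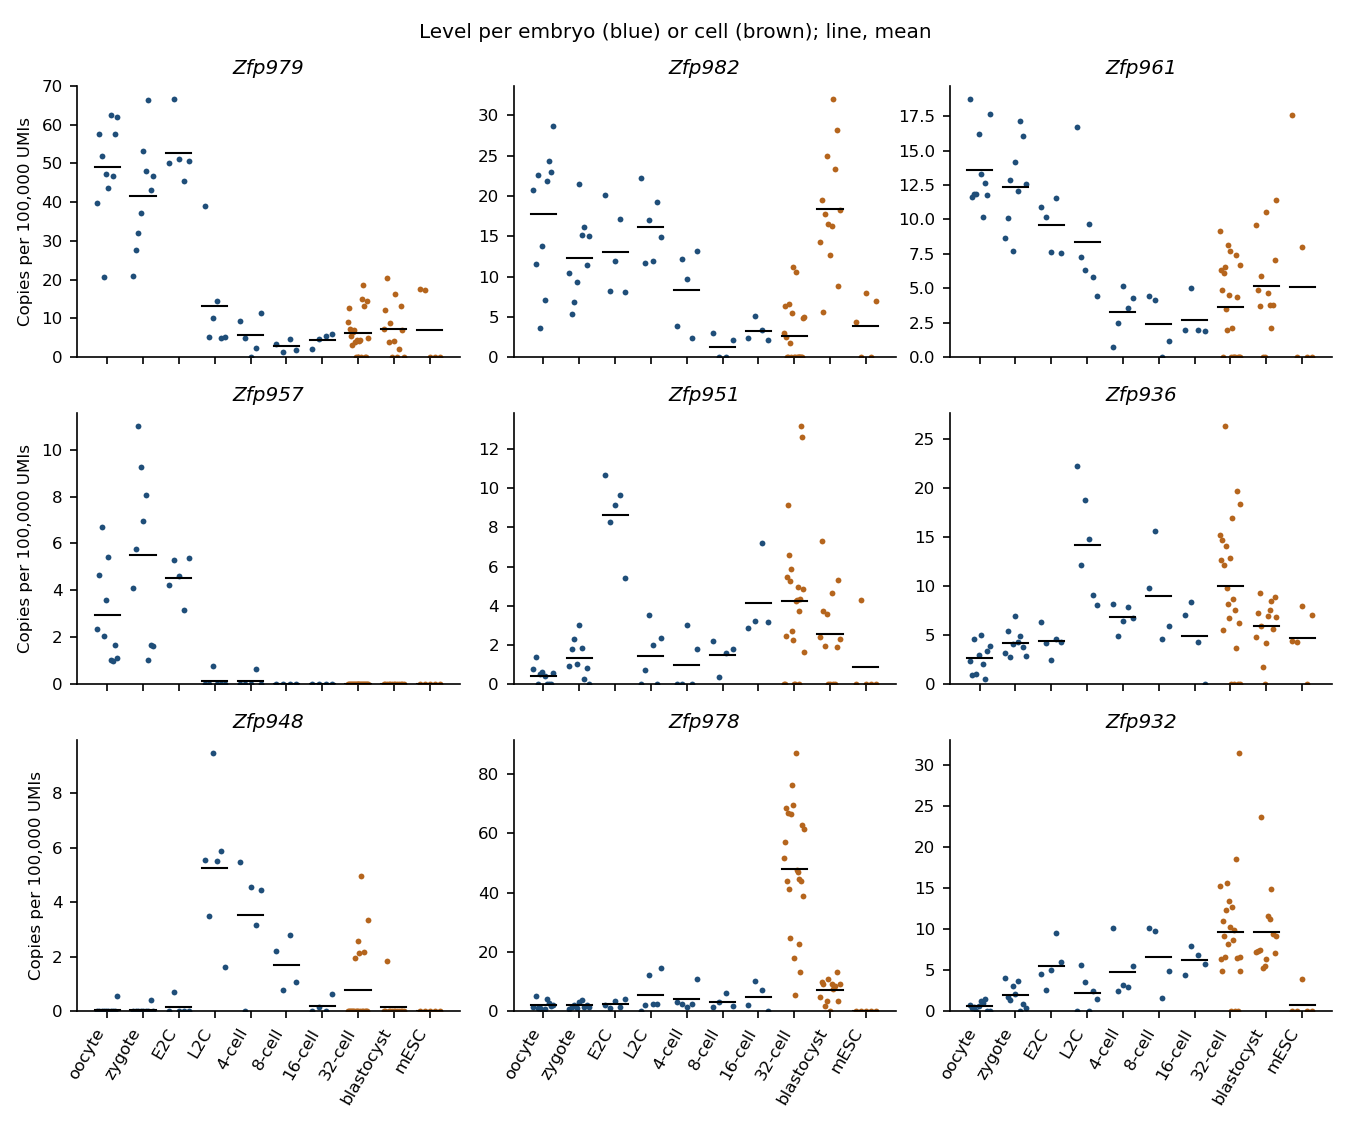
Copies per 100000 UMIs of 9 members (vertical axes) by stage, with a blue point for each oocyte, zygote or embryo, a brown point for each cell of the stages without embryo names, and a line at the mean. The early 2-cell values of Zfp979 (45.5 to 66.7) lie above all late 2-cell values, and those of Zfp978 reach 87.1 in 32-cell cells.

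The step from oocyte to zygote asks what changes at fertilization, before the embryo's own genes are fully active. No member was called with limma, where a call needs p under 0.01 and a change of more than 1 log2 unit, while 8 of 39 tested members had an unadjusted p under 0.05 with limma, and edgeR and DESeq2, which tested 14 members, called 2 each (Zfp931 and Zfp932). Over all 11682 genes tested, 2.92% were called higher and 0.325% lower in zygotes. Of 179 other Zfp genes tested, 32 had an unadjusted p under 0.05 with limma. Both edgeR and DESeq2 called 4 of the 59 they tested. Shares over all genes at that p, or with these 2 tools, are not given for any step. Such counts of members can therefore not be read as an excess. Changes of members were small, with a median log2 fold change of 0.09 against 0.07 over all genes. Zfp931 had 2.24 to 11.7 copies in oocytes (median 6.44) and 0.847 to 5.68 in zygotes (median 3.21), a log2 fold change of -0.94 ± 0.23 (SE, limma adjusted p 0.0027). Zfp932 went the other way, from 0 to 1.46 in oocytes (median 0.557) to 0 to 4.09 in zygotes (median 1.80), a log2 fold change of 0.88 ± 0.24 (limma adjusted p 0.00912). Oocytes and zygotes overlapped for both genes, and both fold changes stay under the limit of 1. Zfp952, at 0.82 ± 0.19 (limma adjusted p 0.00133), passed the limits when 0.5 was added before the logarithm in place of 1, as did Zfp931 and Zfp932. Leaving out single embryos also brought calls: Zfp931 was called without oocyte 7 (-1.03), 8 (-1.02) or 9 (-1.07) or zygote 9 (-1.02), and Zfp932 without zygote 7 (1.05) or 9 (1.02). With the sequencing run as a block, limma called 0 of 25 members tested among oocytes and zygotes, and with the run by number order as a block in the fit of all 7 stages it called 0 of 39.

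From zygote to early 2-cell embryo, before the main wave of embryonic transcription, 3 members were called higher and 0 lower by limma. Over all genes 4.52% were higher and 2.75% lower. Among members tested, 9 had an unadjusted p under 0.05 and were higher and 2 had one and were lower, and neither edgeR nor DESeq2 called a member lower. Among 179 other Zfp genes tested, 34 with such a p were higher and 7 lower. Zfp951 had 0 to 3.02 copies in zygotes (median 1.03) and 10.7, 8.29, 9.17, 9.65 and 5.4 in the early 2-cell embryos. Every early 2-cell embryo was thus above every zygote, with a log2 fold change of 2.13 ± 0.31 (SE, limma adjusted p 1.0e-06). Zfp930 had 0 to 2.43 copies in zygotes (median 0.721) and 2.5, 3, 2.44, 3.1 and 3.26 in early 2-cell embryos, where the highest zygote and the lowest embryo almost met. Its log2 fold change was 1.07 ± 0.30 (limma adjusted p 0.00870), and it was not called with 2 added before the logarithm (0.75) or without zygote 1 (0.95) or 8 (0.99), or with the run by number order as a block (0.96). Zfp932 had 4.58, 2.63, 5.02, 9.58 and 5.98 copies in the early 2-cell embryos, overlapping the zygotes, and a log2 fold change of 1.20 ± 0.33 (limma adjusted p 0.00952). The call of Zfp932 was lost without early 2-cell embryo 4 (0.95) and with 2 added (0.93).

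Early and late 2-cell embryos lie on either side of the main activation of the embryo's genes, and here most calls were made. Limma called 6 members higher and 9 lower in late 2-cell embryos, when over all genes 25.6% were called higher and 22.8% lower. The median log2 fold change was -0.03 in members and 0.03 in all genes. With edgeR and DESeq2, which tested 14 members, 8 were called by each. These were 2 higher and 6 lower with edgeR, and 1 higher and 7 lower with DESeq2. With the run by number order as a block limma called 14. Among 179 other Zfp genes tested, limma called 34 higher and 31 lower. Of the 59 other Zfp genes that edgeR and DESeq2 tested, edgeR called 16 higher and 21 lower, and DESeq2 13 and 26.

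Zfp979 stepped down from a high level. Its 5 early 2-cell values, from 45.5 to 66.7 copies, stood above its 6 late 2-cell values, of which the highest was 39 in late 2-cell embryo 1 and the others 4.93 to 14.6. The log2 fold change was -2.63 ± 0.41 (SE, limma adjusted p 1.67e-07) and lay between -2.95 and -2.30 in all 18 other settings, called in each. Zfp957 went from 4.25, 5.29, 4.62, 3.17 and 5.4 copies to 0, 0, 0.79, 0, 0 and 0, without overlap (-2.26 ± 0.46, limma adjusted p 3.11e-05). Zfp951, which had risen into the early 2-cell stage, was down to 0, 0.74, 3.55, 2, 0 and 2.35 copies in late 2-cell embryos, again without overlap (-2.11 ± 0.43, limma adjusted p 2.88e-05). Zfp931 went from 7.63, 6.36, 6.32, 2.55 and 1.09 to 0, 0, 0, 0.828, 1.64 and 0 copies, with 1 late embryo above the lowest early one (-2.01 ± 0.43, limma adjusted p 6.78e-05). Zfp943 was at 3.05 to 8.65 copies in early and 0 to 1.66 in late 2-cell embryos, apart from each other (-1.89 ± 0.39, limma adjusted p 3.80e-05). For Zfp946, 2.29 to 4.46 copies were followed by 5.56, 0, 0, 1.17, 0 and 0 in late 2-cell embryos, where the 5.56 of embryo 1 is a single UMI (also in its values of 5.56 elsewhere), above all early ones (-1.82 ± 0.35, limma adjusted p 1.17e-05). Also lower were Zfp984 (-1.69), Zfp944 (-1.39) and Zfp942 (-1.08). Calls of the last 2 depend on the setting: Zfp944 was not called without early 2-cell embryo 2 (-1.29) or 4 (-1.32), without late 2-cell embryo 5 (-1.01) or 6 (-1.36) or without the filter on low values (-1.47). Zfp942 was not called in 11 of 18 settings: with 0.5 (-1.19) or 2 added (-0.91), without the filter (-0.99) or array weights (-0.88), without early 2-cell embryo 2 (-0.90) or 3 (-0.95), without late 2-cell embryo 2 (-1.08), 3 (-0.97), 5 (-1.07) or 6 (-1.06), or with the run by number order as a block (-1.09).

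Zfp948 had the clearest rise. It had 0, 0.71, 0, 0 and 0 copies in early 2-cell embryos and 5.56, 3.49, 9.47, 5.51, 5.87 and 1.61 in late 2-cell embryos, without overlap (2.33 ± 0.31 SE, limma adjusted p 4.04e-09), and it was called in all 18 other settings. Zfp936 was present before, at 6.31, 4.23, 2.44, 4.62 and 4.35 copies, and reached 22.3, 12.2, 18.7, 14.8, 9.08 and 8.05 in late 2-cell embryos. Its groups did not overlap either (1.34 ± 0.43, limma adjusted p 0.00596), and it was not called without the filter (1.30), with DESeq2 (0.96), or without early 2-cell embryo 3 (1.17) or late 2-cell embryo 3 (1.18). Zfp949 went from 0, 0, 0, 0 and 1.09 to 5.56, 5.71, 1.78, 3.31, 0.861 and 0.736 copies, with overlap (1.49 ± 0.35, limma adjusted p 0.000241), and was not called with 2 added (1.0). Zfp977 (1.31 ± 0.31, limma adjusted p 0.000278) had 1 early embryo above 0, at 0.483, and late values of 0, 2.75, 1.58, 5.17, 0 and 2.94. With 2 added it was not called (0.88). The calls of Zfp950 (1.10) and Zfp988 (1.06) each failed in several settings. Zfp950 was lost with 2 added (0.72), without array weights (0.99) or without late 2-cell embryo 2 (0.89), 3 (0.99) or 4 (0.94). Zfp988 was lost with 2 added (0.70), without early 2-cell embryo 2 (0.99), 4 (0.91) or 5 (0.97), or without late 2-cell embryo 1 (0.99), 2 (0.95) or 4 (0.93).

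**Figure D3:**
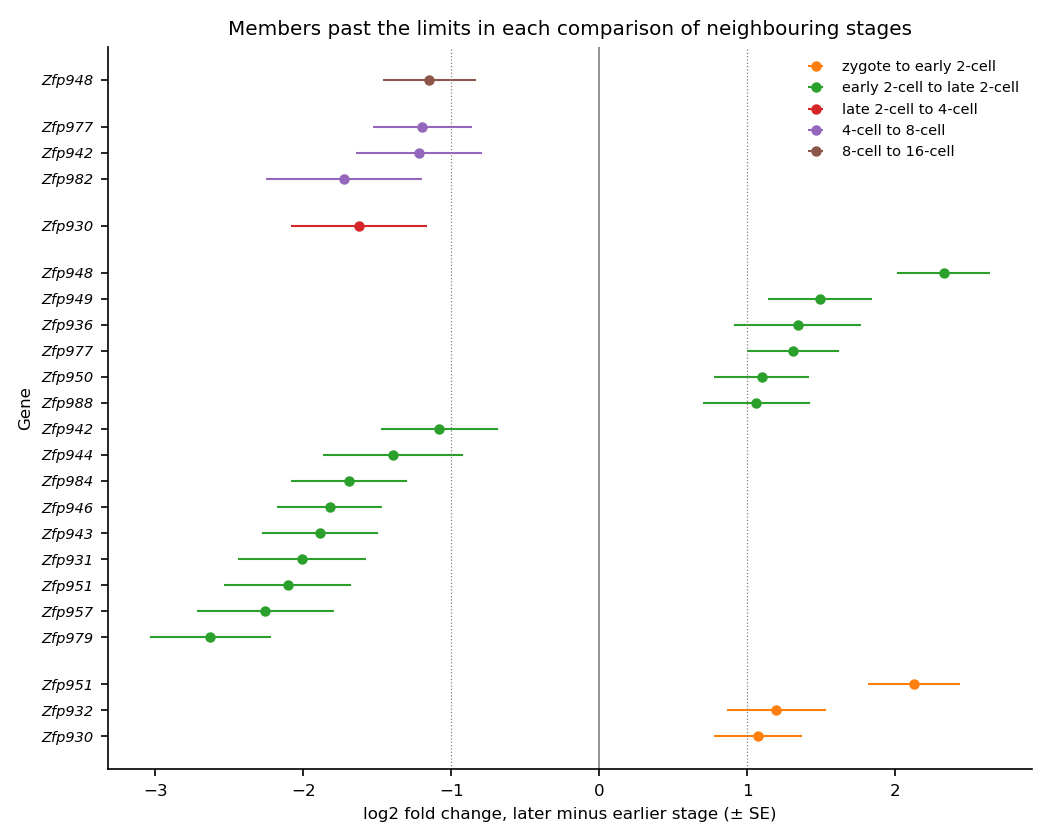
Log2 fold change, later minus earlier stage, with its SE (bars), of the 23 member results called by limma, grouped by comparison, with dotted lines at the limits of 1 in size. Most lie at the step from early to late 2-cell embryo, from -2.63 for Zfp979 to 2.33 for Zfp948.

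After the late 2-cell stage few steps were called, and with the run by number order as a block the same members were. From late 2-cell to 4-cell embryos limma called 1 member lower and 0 higher, against 2.41% of all genes higher and 4.28% lower. In that comparison 3 higher and 5 lower members had an unadjusted p under 0.05, and edgeR and DESeq2 called none of 14. Such a p was found for 7 other Zfp genes that were higher and 12 that were lower, of 179. The member called by limma was Zfp930, which was not among the 14 that edgeR and DESeq2 tested. Zfp930 had 5.56, 5.5, 2.76, 8.48, 0.784 and 1.61 copies in late 2-cell embryos and 0, 0, 0, 1.26 and 0 in 4-cell embryos. The groups overlapped by 1 embryo (-1.62 ± 0.46 SE, limma adjusted p 0.0326). Without array weights Zfp961 and Zfp979 were called as well. Without 4-cell embryo 1, 3 members were called, and without late 2-cell embryo 4, 2 were.

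From 4-cell to 8-cell embryos limma called 3 members lower and 0 higher, when 4.47% of all genes were higher and 10.5% lower. An unadjusted p under 0.05 was found for 2 members with higher and 8 with lower levels, while edgeR and DESeq2 each called 0 higher and 1 lower. Such a p was found for 7 other Zfp genes that were higher and 39 that were lower, of 179. Zfp982 had 3.83, 12.2, 9.76, 2.43 and 13.2 copies in 4-cell embryos and 2.97, 0, 0 and 2.15 in 8-cell embryos, where 1 4-cell embryo lay within the 8-cell values (-1.72 ± 0.53 SE, limma adjusted p 0.0164). It was not called without 4-cell embryo 5 (-1.34) or 8-cell embryo 2 (-1.33). Zfp977 had 2.4, 0, 5.14, 1.82 and 1.88 copies and then values from 0 to 0.689 in the 8-cell embryos (-1.20 ± 0.33, limma adjusted p 0.00843), and with 2 added it was not called (-0.81). Zfp942 had 2.49, 2.45, 3.3, 3.02 and 2.38 copies and then 0.757, 0.397, 5.63 and 0, with 1 8-cell embryo above all 4-cell embryos (-1.22 ± 0.42, limma adjusted p 0.0389). It failed in 9 of 16 settings: with 2 added (-0.81), without the filter (-1.16) or array weights (-0.88), with edgeR (-1.63) or DESeq2 (-1.87), and without 4-cell embryo 4 (-1.18) or 5 (-1.28) or 8-cell embryo 2 (-1.20) or 4 (-0.96). The number called was 1 without 4-cell embryo 5 or without 8-cell embryo 2.

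From 8-cell to 16-cell embryos limma called 1 member lower and 0 higher, against 1.90% of all genes higher and 1.46% lower. There were 6 members with higher levels and 1 with lower levels at an unadjusted p under 0.05, edgeR called 0 higher and 1 lower, and DESeq2 called 0 of either. Such a p was found for 8 other Zfp genes that were higher and 6 that were lower, of 179. Zfp948 went from 2.2, 0.767, 2.81 and 1.08 copies to 0, 0.147, 0 and 0.628, without overlap (-1.15 ± 0.31 SE, limma adjusted p 0.0412). It was not called with 2 added (-0.73), with DESeq2 (-2.80), without 8-cell embryo 1 (-0.97) or without 16-cell embryo 1 (-0.97). The number of members called was 4 without 16-cell embryo 4, and 2 without 8-cell embryo 1 or 2.

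Several members were highest in stages without embryo names, where no test was run. Zfp978 had 0.6 to 5.10 copies in oocytes, 0, 2.22, 12.2, 2.34, 2.58 and 14.5 in late 2-cell embryos, and 5.64 to 87.1 in 32-cell cells, with a median of 47.3 and all 22 cells above 0. Of the 289 isoform UMIs of Zfp978 in 32-cell cells, 288 were in isoforms without a finger, described below. For the gene as a whole, all cells of that stage count. Its blastocyst median was 8.49 (0 to 13.2), a range that overlaps that of the 32-cell cells, and it had no UMI in mESC, which allows up to 2.90 copies. All 32-cell cells came from run 2, and the oocyte and both zygotes of that run had 0.833, 3.32 and 3.72 copies. The 16-cell embryo placed in run 2 by number order had 10.3 copies, against 1.98 and 0 to 7.10 in those of runs 1 and 3. Zfp985 had 5.17, 1.62, 1.59 and 2.28 copies in 8-cell and 3.96, 11, 5.48 and 1.93 in 16-cell embryos, medians of 12.9 in 32-cell (1.76 to 30.2) and 12.6 in blastocyst cells (0 to 31.1), and 0.132 on average in oocytes. Zfp982 was unlike both, high in oocytes (3.61 to 28.7, median 21.3) and blastocyst cells (5.59 to 32.1, median 17.8), with a median of 0 in 32-cell cells (0 to 11.2). Zfp932 had medians of 8.89 copies in 32-cell (0 to 31.5) and 7.45 in blastocyst cells (5.34 to 23.7). Zfp960 had 7.03, 4.86, 5.63 and 7.09 copies in 8-cell and 1.74, 5.19, 5.89 and 14.5 in 16-cell embryos, and these groups overlapped. Zfp981 was highest in blastocyst cells (median 5.66, 2.29 to 12.5). In mESC, Zfp990 had 4.40 to 16.0 copies (median 8.61, 10 UMIs in 5 cells) and a mean of at most 1.45 in every other stage.

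Genes that KRAB proteins work with, and KRAB zinc finger genes studied before, were read in the same fit. Of 33 machinery genes 32 were measured and tested. From oocyte to zygote limma called 2 higher (6.25%; Dnmt1, 1.19, and Mphosph8, 1.06) and 1 lower (3.12%; Sumo2, -1.23), against 2.92% and 0.325% of all genes. From zygote to early 2-cell embryo 2 were higher (Atf7ip, 1.14, and Dnmt3l, 1.03) and 4 lower (Sumo2, -2.80, Mphosph8, -2.01, Dnmt1, -1.50, and Trim28, -1.18), or 6.25% and 12.5% against 4.52% and 2.75%. At the step to late 2-cell embryos 12 were higher and 10 lower, or 37.5% and 31.2% against 25.6% and 22.8%. Sumo2 (10.1 to 135 copies, log2 fold change 3.87), Hdac1 (3.05), Cbx3 (2.81), Pphln1 (2.69), Suv39h1 (2.61) and Ehmt2 (2.53) were among the rises, and Uhrf1 (17.3 to 1.23 copies, -3.08), Chd4 (-2.47), Cbx1 (-2.10), Suv39h2 (-2.07) and Setdb1 (13.1 to 2.78 copies, -1.79) among the falls. Trim28 went from 16.8 copies in zygotes to 6.19 in early and 13.7 in late 2-cell embryos, a rise of 1.06. Later 2 of 32 (6.25%, against 4.28% of all genes lower), 3 (9.38%, against 10.5%) and 2 (6.25%, against 1.90% higher) were called in turn: Atrx (-1.61) and Suv39h1 (-1.07) were lower in 4-cell embryos (0 called without 4-cell embryo 4 or 5, or by edgeR or DESeq2, and 1 with the run block), Atf7ip2 (-1.82), Pphln1 (-1.26) and Ehmt1 (-1.15) in 8-cell embryos (6 called without 4-cell embryo 3, 5 with the run block), and Cbx1 (1.52) and Hdac2 (1.30) were higher in 16-cell embryos (1 called without 8-cell embryo 4 or 16-cell embryo 2, 4 without 16-cell embryo 1). Of the other KRAB genes, 20 were measured and 12 tested, so that 1 called gene is 8.33% of them (2.92%, 4.52% and 4.47% of all genes were higher at the steps where 1 of this list was higher), and the 3 lower at the step to late 2-cell embryos are 25% (22.8% of all genes). Zfp57, whose protein keeps imprints, went from 21.7 copies in oocytes to 81.0 in zygotes (2.18), and from 104 in early to 9.71 in late 2-cell embryos (-3.25), then down again from 4-cell to 8-cell embryos (-1.98). Gm15446 was called higher in early 2-cell embryos (1.01, not called without early 2-cell embryo 1 or 3, without zygote 3, 7, 8 or 9, or with the run by number order as a block), lower in late 2-cell embryos (-2.52) and higher in 8-cell embryos (1.38), and Zfp69 was lower in late 2-cell embryos (-2.01), where 5 of this list were called without late 2-cell embryo 2. In this list 0 were called from late 2-cell to 4-cell and from 8-cell to 16-cell embryos, with 0 at an unadjusted p under 0.05 with limma and 0 by edgeR or DESeq2.

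Isoforms were listed for 29 members, among 68012 isoforms of all genes, and 32 members had none. These isoforms held 3919 UMIs, which is 34.1% of the members' gene UMIs, against 69.4% for all genes, so isoform levels cover a part of each gene. Full splice matches to the annotation made 56 of the isoforms and 57.1% of their UMIs, isoforms with a splice site outside the annotation 51 and 34.8%, partial matches 12 and 6.76%, and new combinations of known sites 4 and 1.33%. The share of UMIs with a splice site outside the annotation was 4.35% over all genes. The finger exon could be placed in 121 isoforms. All annotated fingers were held by 72 of them (61.7% of 3817 UMIs), some by 14 (6.13%) and none by 35 (32.1%), of which 26, of 17 members, kept the KRAB exon. Members differed widely: isoforms without a finger held 0.837% of the UMIs of Zfp979 (23 isoforms), 10.8% in Zfp961, 47.9% in Zfp982, 48.5% in Zfp936, 52.5% in Zfp932 and 92.2% in Zfp978. For Zfp931, Zfp981, Zfp949, Zfp950 and Zfp977 no isoform listed held all fingers. The main isoform of Zfp979, PB.54849.12, held 466 UMIs (39.0%). The 2 isoforms of Zfp957 held no coding base.

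Most UMIs of Zfp978 in 32-cell cells belonged to a single isoform, PB.54823.295, of 590 bases in 4 exons. It held 349 of the 425 isoform UMIs of the gene (82.1%), with a median of 45.5 copies in 32-cell cells (0 to 74.0) and no UMI in oocytes, blastocyst cells or mESC, which allows up to 0.223, 0.638 and 3.49 copies. Its last exon (147544578 to 147544786, chromosome 4) starts 153574 bases beyond the annotated gene end, behind an intron of 159276 bases, and it holds no finger. That intron spans the whole of Zfp982, on the same strand, and the exon lies between Zfp982 and Zfp985. Whether the reads were given to the right copy in this cluster was not tested. The gene's isoforms without a finger made 0 of 14 UMIs in oocytes, 92% in late 2-cell embryos and 99.7% in 32-cell cells. They also made all 6 UMIs in 8-cell embryos, all 48 in 16-cell embryos and all 9 in blastocyst cells. In the oocyte and zygotes of run 2 PB.54823.295 had 0, 0.417 and 0.438 copies, and in zygote 8, of run 3, it had 0.649. The 16-cell embryo placed in run 2, embryo 2, had 9.16 copies against 0, 5.37 and 0 in embryos 1, 3 and 4. From early 2-cell to 8-cell embryos the highest value of each stage was that of an embryo placed in run 3. It was 2.52 copies in early 2-cell embryo 5, 12.5 in late 2-cell embryo 6, 5.56 in 4-cell embryo 5 and 3.58 in 8-cell embryo 3. For Zfp932, PB.58431.110, of 503 bases in 3 exons with the KRAB exon and no finger, had no UMI from oocyte to early 2-cell embryo and mean levels of 0.161 copies in late 2-cell and 1.17 in 4-cell embryos, 3.23 and 3.30 at the 8-cell and 16-cell stages, and 4.81 and 8.11 in 32-cell and blastocyst cells. In each of these embryo stages the highest value was that of embryo 2, placed in run 2: 0.965, 3.28, 6.74 (8-cell embryo 1 had 5.72) and 7.14 copies, without which the means were 0, 0.649, 2.06 and 2.02. Isoforms of Zfp932 without a finger made 0 of 7, 25 and 30 UMIs in oocytes, zygotes and early 2-cell embryos, 9.09% in late 2-cell and 62.8% in 8-cell embryos and 78.8% in blastocyst cells. An isoform of Zfp982, PB.54823.674, starts inside the gene at 147513391, close to the gene end at 147513486, and runs on to 147516072. It holds no coding base and made 154 UMIs (42.2%), of the 175 UMIs of Zfp982 in isoforms without a finger.

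**Figure D4:**
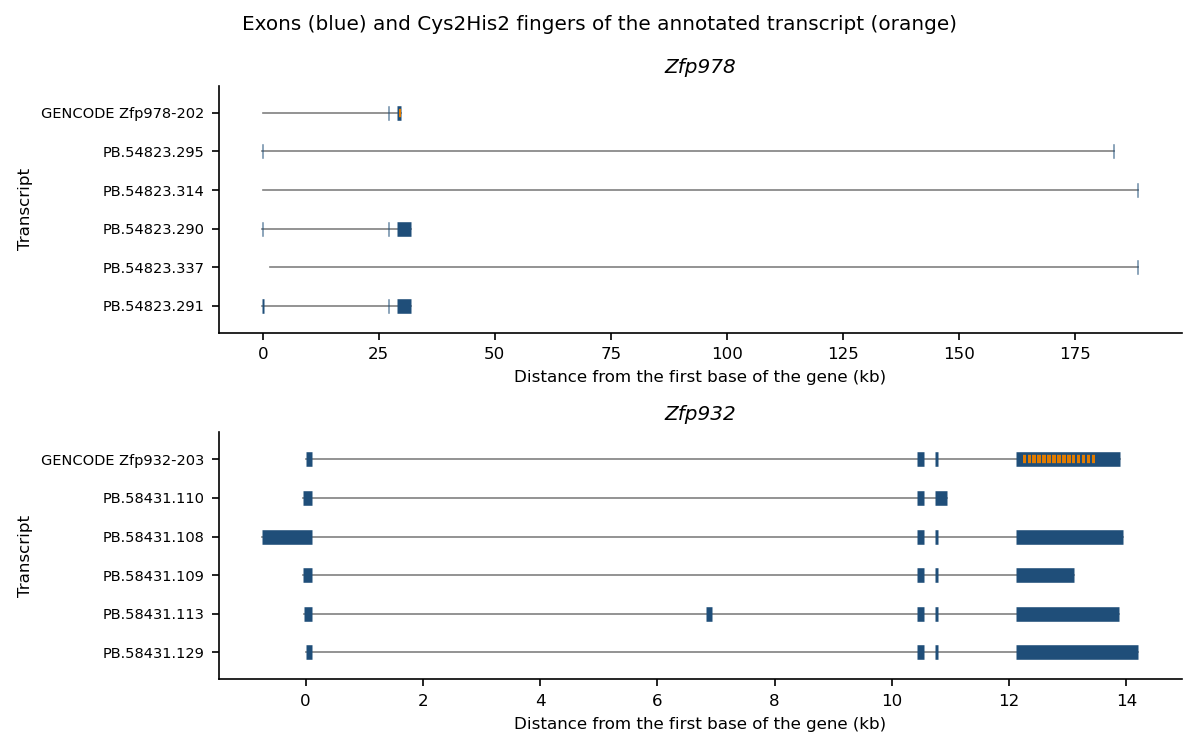
Exons (blue) and finger stretches (orange) of the annotated transcript and the 5 isoforms with most UMIs of Zfp978 and of Zfp932, along the distance from the first base of the gene in kilobases. The last base of the main Zfp978 isoform lies 153782 bases past the annotated gene end, and it skips the finger exon.

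Isoforms without a finger differed in share between stages and between embryos of a stage. Pooled over cells, with intervals that cover counting error only and not the spread between embryos, the share was 17.2% in oocytes (95% Wilson interval 15 to 19.6, 1019 UMIs), 13.2% in zygotes (11.2 to 15.4), 17.2% in early 2-cell (13.5 to 21.7), 42.9% in late 2-cell (35.6 to 50.4), 31.5% in 4-cell (24.4 to 39.5), 44.2% in 8-cell (36.9 to 51.9) and 60.6% in 16-cell embryos (55.4 to 65.6). It was 81.6% in 32-cell cells (77.8 to 84.8), 48.2% in blastocyst cells (40.8 to 55.7) and 23.1% in mESC (8.18 to 50.3, 13 UMIs). Single oocytes ranged from 7.92 to 71.4% (oocyte 4), zygotes from 6.28 to 50%, early 2-cell embryos from 10.7 to 26.2%, late 2-cell embryos from 14.3 to 57.6%, 8-cell embryos from 20 to 68.8% and 16-cell embryos from 13.0 to 75.9%, so stages overlapped. In the 16-cell stage 1 embryo decides the pooled share: embryo 2 holds 245 of 353 UMIs, and without it the share was 25.9%, with a median over embryos of 31.3%. The highest 8-cell value was also that of embryo 2, and without it the pooled share was 34.2%. These embryos had the low sums of oocyte genes given above, at 30.5 and 25.5 copies, and number order places both in run 2, the run of all 32-cell cells. By that placement the share in runs 1, 2 and 3 was 41.3%, 68.8% and 21.4% at the 8-cell stage and 27.7%, 75.9% and 23.3% at the 16-cell stage, 34.3%, 33.3% (6 UMIs) and 30.4% at the 4-cell stage, 14.3% (7 UMIs), 50.6% and 38.1% in late 2-cell and 20.5%, 23.7% and 11.3% in early 2-cell embryos, and 22.4%, 8.11% and 13.0% in zygotes. In oocytes it was 23.6%, 20% and 10.2%. Run 2 was highest in 4 of these 7 stages. Run and embryo cannot be told apart where a run holds 1 embryo. Without Zfp978 the share was 17.4% in oocytes, 13.0% in zygotes, 16.5% in early 2-cell and 34.3% in late 2-cell embryos. It was 42.1% in 8-cell and 54.4% in 16-cell embryos, 51.2% in 32-cell and 45.3% in blastocyst cells. The members that supply the UMIs differ between stages. Zfp979 held 503 of 1019 UMIs in oocytes, 506 of 996 in zygotes and 112 of 331 in early 2-cell embryos. Of these 1, 0 and 0 lacked a finger. It held 16 of 168 in late 2-cell and 6 of 165 in 8-cell embryos. How much of the difference between stages comes from this mix was not tested. The share of short molecules over all genes differed between stages as well: isoforms under 1000 bases took 23.6% of all isoform UMIs in oocytes, 34.8% in late 2-cell, 31.7% in 4-cell, 36.8% in 8-cell and 42.5% in 16-cell embryos (36.0% without embryo 2, itself at 49.3%), 46.2% in 32-cell cells and 37.9% in mESC, and how much of the share without a finger comes from this was not tested.

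**Figure D5:**
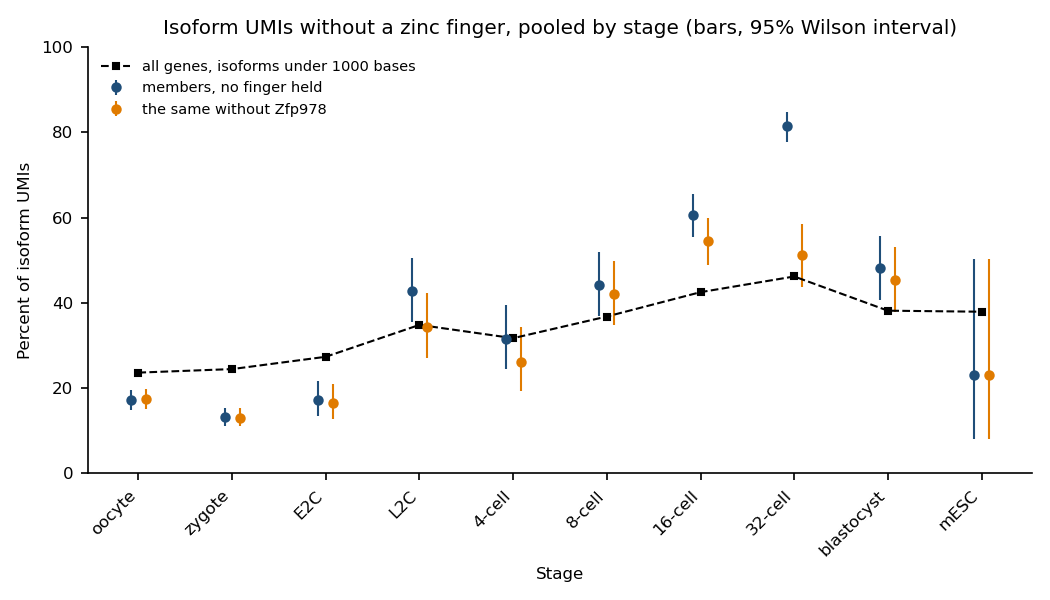
Percent of member isoform UMIs in isoforms without a finger by stage, for all members and without Zfp978, with 95% Wilson intervals, and a dashed line for the percent of all isoform UMIs in isoforms under 1000 bases. The share for all members is 17.2% in oocytes and 81.6% in 32-cell cells, and the 16-cell value of 60.6% is 25.9% without embryo 2. Intervals cover counting error only.

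In the isoform fit 40 member isoforms of 16 genes were tested among 29409. From oocyte to zygote limma called 0 of them (1.48% of all isoforms), 11 had an unadjusted p under 0.05, and 3 were called with 0.5 added. From zygote to early 2-cell 3 were called (5.18% of all): Zfp957 PB.24731.28 was lower (-1.14, limma adjusted p 0.0890), Zfp982 PB.54823.518 (1.11, 0.0802) and Zfp932 PB.58431.108 (1.11, 0.0473) were higher. From early to late 2-cell 4 were called (26.0% of all), with Zfp979 PB.54849.12 (-2.45, limma adjusted p 0.00131) and PB.54849.6 (-1.89) and Zfp931 PB.45838.12 (-1.65) lower and Zfp958 PB.70186.2 (1.03) higher. From late 2-cell to 4-cell Zfp960 PB.31900.96 was higher (1.63, limma adjusted p 0.163; 4.29% of all called), and with a filter of 2 embryos none was called. From 4-cell to 8-cell Zfp932 PB.58431.110 was higher (1.15, limma adjusted p 0.0561; 7.93% of all called), and with 0.5 added none was. From 8-cell to 16-cell 0 were called (1.97% of all), with 1 at an unadjusted p under 0.05. No other tool was run on isoforms, and no fit of isoforms left out an embryo. The share of all isoforms at an unadjusted p under 0.05 is not given.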

How the data were processed

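The authors built molecules from PacBio reads, aligned them to mm10, grouped them into isoforms, removed isoforms seen in fewer than 5 cells, and deposited values per gene or isoform as CPM divided by 10, here called copies per 100000 UMIs. A separate batch was deposited as whole UMIs per isoform, read here as a score outside every comparison. UMIs recovered from the copies were whole numbers within a tolerance of 0.1. Stage steps were tested with limma 3.58.1 (trend, array weights) on log2 of copies plus 1, all 7 stages with named embryos in 1 fit without a term for the sequencing run, for genes with at least 1 copy in at least 4 embryos. A call needed p under 0.01, two-sided, and a change of more than 1 log2 unit, and p was adjusted over all genes tested (Benjamini-Hochberg). Other tools were edgeR 4.0.16, DESeq2 1.42.0, R 4.3.3, Python 3.11.15 and BLAST+ 2.17.0. Symbol alone defined the members, but the symbol range and the gene lists were chosen with earlier results of these data known. Genes named are the 15 members with the highest stage mean of at least 5 copies, up to 6 called members per direction and comparison, and up to 6 called genes per list, of which 1 is not reported here; other members are named by their highest stage. Isoform, finger and promoter comparisons, and the fits with the run by number order as a block, without each oocyte, zygote or late 2-cell embryo or with oocytes and zygotes alone, were chosen after values were seen.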

Additional observations from a re-analysis of the deposited data

Results flagged for a closer look

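In groups of 4 to 10 oocytes, zygotes or embryos, 48 groups were searched for an embryo far from the others, and 3 were found. Chance gives about 1 in 20 groups. In oocytes, the sum over the members was 69.7 copies per 100000 UMIs in oocyte 4 and 113.5 to 163.6 in the other 9. In early 2-cell embryos, Zfp979 stood at 66.7 copies in embryo 2 and at 45.5 to 51.1 in the other 4. In late 2-cell embryos, Zfp979 stood at 39 copies in embryo 1 and at 4.93 to 14.6 in the other 5, and the 8 oocyte genes summed to 256 copies in that embryo, within the range of 70.3 to 290 over all 6. That embryo is a single cell of 17971 UMIs, where 1 UMI is worth 5.56 copies. The causes were not tested.

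A separate batch of 16 columns, each an oocyte or a split oocyte, took no part in any comparison. It held 7930 UMIs of members at 129744 to 289774 UMIs per column (median 200772). The members' isoforms summed to 168.3 to 304.2 per 100000 (median 247.9). Single isoforms held 91 to 273 UMIs for the 22 isoforms of Zfp979, 191 to 261 for the 7 of Zfp982 and 1 to 288 for the 4 of Zfp980. The nearly even spread in Zfp979 and Zfp982 leaves the isoform counts of this batch in doubt, and its cause was not tested. No level was compared with the other samples.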

How the results depend on the processing

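Of the 23 results in which limma called a member, 10 were called in every alternative that tested them (6 of these also with edgeR and DESeq2, which did not test the other 4), 13 missed a limit in at least 1, and 0 changed sign. The tools edgeR and DESeq2 tested 14 of the 39 members, which limits how many they can call.

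With 0.5 added before the logarithm, 3 members were called from oocyte to zygote in place of 0. With 2 added, 1 was called from zygote to early 2-cell in place of 3. From early to late 2-cell 10 were called in place of 15. The same setting called 1 from 4-cell to 8-cell in place of 3, and 0 from 8-cell to 16-cell in place of 1. Without array weights, 3 were called from late 2-cell to 4-cell in place of 1 and 2 from 8-cell to 16-cell. With edgeR, 2 were called from oocyte to zygote, 8 from early to late 2-cell in place of 15 (8 of them shared), 0 from late 2-cell to 4-cell and 1 from 4-cell to 8-cell. With DESeq2 the counts were 2, 8 (7 shared), 0 and 1, and 0 from 8-cell to 16-cell. Beyond the number tested, the cause was not tested.

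With the run of each embryo, placed by number order, as a block, 0, 2, 14, 1, 3 and 1 members were called in the 6 comparisons in order, all of them called without the block.

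Leaving out 1 oocyte, zygote or embryo of the stages compared at a time gave 0 to 2 calls from oocyte to zygote, 2 to 4 from zygote to early 2-cell, 12 to 15 from early to late 2-cell, 1 to 3 from late 2-cell to 4-cell, 1 to 4 from 4-cell to 8-cell and 1 to 4 from 8-cell to 16-cell. The fits with that block, without each oocyte, zygote or late 2-cell embryo and with oocytes and zygotes alone were chosen after seeing the data.

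Members detected per cell went from 16 to 3.8 with cells thinned to 5000 UMIs and to 1.6 at 2000, by construction. The highest stage was the same for 28 of 61 members with the median over embryos, for 34 with 7 stages only (by construction, those highest in 1 of the 7) and for 50 with pooled UMIs. For isoforms, 0.5 added gave 3 calls in place of 0 from oocyte to zygote and 0 in place of 1 from 4-cell to 8-cell, and a filter of 2 embryos gave 0 in place of 1 from late 2-cell to 4-cell.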

Other observations

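Several limits bear on these values. The median cell of the 4-cell, 8-cell and 16-cell stages held 32466, 33030 and 32481 UMIs, so a member at 1 or 2 copies is often missed there. Stages with unnamed embryos give cells, not embryos, and their run and stage cannot be told apart. Members with near copies may share reads. A total per 100000 UMIs hides changes in the RNA content of a cell. Isoforms seen in fewer than 5 cells were removed before deposit, which takes more from rare genes.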
